A study of Mus musculus with 24 samples.

Results

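Medium-chain triglyceride (MCT) feeding was compared with the control diet in the hippocampus of 3xTg-AD mice (3xTg), a transgenic model of Alzheimer's disease, as labelled in the deposited samples: 4 MCT libraries against 3 control libraries, 7 of the 24 in the series. Each library came from the hippocampus of 1 female mouse. The 3xTg MCT mice ate a diet of 70% carbohydrate, 10% long-chain triglyceride, 10% medium-chain triglyceride (C8:0 and C10:0 fatty acids) and 10% protein. The 3xTg control mice ate 70% carbohydrate, 20% long-chain triglyceride and 10% protein. Both diets supplied 4.1 kcal/g and were eaten for 6 months from 3 months of age, so the groups differed in which triglyceride made up part of the fat and not in carbohydrate, protein or energy density. By their labels all 7 mice carried the alleles of the 3xTg-AD line (1 control library went against this, as given below), whose human APP and MAPT transgenes sit in a Thy1 expression cassette and are therefore expressed in neurons. B6129SF2/J mice (WT) on the same diets, with 4 MCT and 4 control libraries, served to ask whether the effect of MCT depended on genotype. Beside these, the 3xTg and WT ketogenic libraries of the series, from mice fed 90% long-chain triglyceride and 10% protein, entered the fits to share the estimate of spread.

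Medium-chain fatty acids are absorbed into the portal blood and oxidised rapidly in the liver, which releases part of their carbon as the ketone bodies beta-hydroxybutyrate and acetoacetate. Ketone bodies and some of the medium-chain fatty acids cross into the brain, where monocarboxylate transporters carry ketone bodies into cells and Bdh1, Oxct1 and Acat1 turn them into acetyl-CoA for the citric acid cycle. Unlike a ketogenic diet, an MCT supplement on a carbohydrate-rich diet leaves glucose as the main fuel.

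One of the control libraries stood apart from the other 6. Thy1, whose regulatory sequences drive the 3xTg transgenes, had normalised counts of 22426, 23382, 28645 and 24816 in MCT mice, against 27207, 21747 and 9189 in control mice. Control replicate 3 therefore lay near the WT libraries (6952 to 8137 in all but 1 WT MCT library), although its label reads 3xTg, and in what follows control replicate 3 means the library labelled so. App, the mouse gene that the APP transgene matches in sequence, had 29569, 32384, 34566 and 32313 in MCT mice, against 32269, 31171 and 23524 in control mice, again with control replicate 3 below all others. On the first principal component of these 7 libraries, which held 30.9% of the variance, control replicate 3 lay at 36.4 and the others between -9.38 and -2.26. The comparison is accordingly given as labelled and again without the 3 libraries of the series whose Thy1 goes against the label (control replicate 3 here, 1 3xTg ketogenic library and 1 WT MCT library), which leaves 4 MCT against 2 control mice. Reads assigned to genes were 15.2 to 25.8 M in the MCT libraries and 13 to 16 M in the control libraries. Markers of hippocampal pyramidal cells were present throughout, with summed normalised counts of 11461 to 12847 in MCT mice and 11929 to 12737 in control mice, and those of dentate granule cells summed to 12416 to 14401 in MCT mice and 13140.3 to 13713 in control mice.

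No gene differed between MCT and control diet in 3xTg hippocampus at the adjusted threshold. As labelled, 0 of 14162 genes (0%) had a Benjamini-Hochberg adjusted p under 0.05 by limma, edgeR or DESeq2, and the smallest adjusted p by limma was 0.999. At an unadjusted p under 0.05 there were 378 genes (2.67%), 218 higher and 160 lower in MCT mice, where 708 would be 5% of the genes tested. Without the libraries whose Thy1 went against the label, 0 of 14126 genes (0%) were called by the same tools, and 165 genes (1.17%), 94 higher and 71 lower, had an unadjusted p under 0.05. Levels in every MCT mouse lay above every control mouse for 332 genes (2.34%) and below for 262 genes (1.85%). Without control replicate 3, and so with fewer mice to overlap, these were 666 genes (4.71%) above and 585 genes (4.14%) below.

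**Figure D1:**
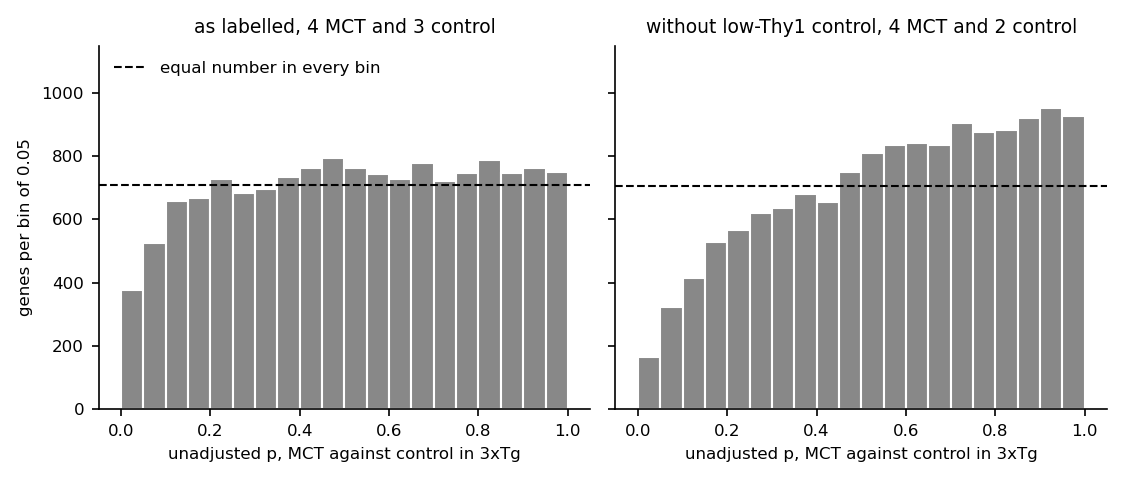
Histograms of the unadjusted limma p for MCT against control diet in 3xTg, in bins of 0.05 (x axis), with the number of genes per bin (y axis), as labelled (left) and without the libraries whose Thy1 went against the label (right). The lowest bin holds 378 genes on the left and 165 on the right, below the dashed line that marks an equal number of genes in every bin.

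The intervals state what size of difference these mice leave possible. The median log2 difference, MCT minus control, was 0.00 over all genes, with a median standard error of 0.10, and 51.7% of genes were nominally higher in MCT mice. For 79.8% of genes the 95% confidence interval of the difference lay inside a 1.5-fold change in either direction, and for 91.8% inside 2-fold. Without the libraries whose Thy1 went against the label these shares were 78.8% and 90.6%. A failed test does not show that a gene had the same level on both diets, and for the genes outside these limits larger differences remain within the interval. The labels do not say whether mice were housed or processed in batches.

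The genes described next are the 15 with the smallest p as labelled, none of them called, each with an adjusted p of 0.999. Ptpru, a receptor-type protein tyrosine phosphatase (chr4:131768457-131838288, GRCm38), came first. Its normalised counts were 619, 554, 646 and 661 in MCT mice, against 435, 509.6 and 439 in control mice. It averaged 620.0 ± 47.7 in MCT mice and 461 ± 41.9 in control mice (SD, n = 4 and 3), a log2 difference of 0.43 ± 0.12 (standard error), and every MCT mouse was above every control mouse.

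Tsc2, which encodes tuberin, the GTPase-activating subunit of the complex that restrains mTORC1 (chr17:24595816-24632630), had counts of 1706, 1508, 1543 and 1648 in MCT mice, against 1293, 1476 and 1349 in control mice. The groups did not overlap, and the log2 difference was 0.22 ± 0.07 as labelled. It was 0.21 ± 0.07 without the libraries whose Thy1 went against the label, with a limma adjusted p of 0.9999 in that fit. Slc9a2, a sodium-hydrogen exchanger (chr1:40680574-40769273), had 550.1, 548, 637 and 556 in MCT mice, against 388, 521 and 383 in control mice, also without overlap. MCT replicate 3 was the highest for this gene and the other 3 MCT mice lay close together. Adamts17, a secreted metalloprotease (chr7:66839735-67153171), had 97.2, 93.7, 85.7 and 85.6 in MCT mice, against 65, 65.4 and 63.9 in control mice. The control mice lay within 2 counts of each other, with a log2 difference of 0.47 ± 0.14 that was nearly as large (0.46) without the low-Thy1 library.

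Kdm2b, a histone demethylase that binds CpG islands, had 337, 349.8, 329 and 334 in MCT mice, against 304, 297 and 239 in control mice, and Loxl1, a lysyl oxidase that cross-links elastin, had 47.7, 45.1, 43.6 and 48.4 in MCT mice, against 29.8, 36.3 and 17.2 in control mice. In both, the low-Thy1 library was the lowest of the 7, and the log2 differences of 0.28 and 0.78 were 0.17 and 0.48 without it. Vwa5b1 was higher in all MCT mice (0.73, and 0.67 without that library). Zfp462 (0.29) and Fam53c (0.20) had overlapping groups.

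Of the 6 genes among these 15 that were lower in MCT mice, Bnip3, a mitochondrial outer membrane protein that promotes mitophagy (chr7:138890836-138909519), had 705, 581, 537 and 515 in MCT mice, against 735, 724 and 963 in control mice. The groups did not overlap, and control replicate 3 was the highest. Pllp, the myelin protein plasmolipin, had 203, 247, 234 and 193 in MCT mice, against 305, 269.8 and 457 in control mice, and Penk, the precursor of enkephalin peptides, had 322, 276, 321 and 340.5 in MCT mice, against 419, 344 and 533 in control mice. For Pllp and Penk the low-Thy1 library was again the extreme one, and the log2 differences of -0.62 and -0.44 were -0.39 and -0.27 without it. Yif1a, a protein of transport between endoplasmic reticulum and Golgi (-0.41), and Ap1s2, a clathrin adaptor subunit (-0.16), were also below every control mouse in all 4 MCT mice. Inpp5f, a phosphoinositide phosphatase, overlapped, with 2097, 2303, 2061 and 2034 in MCT mice, against 3014, 2138 and 3161 in control mice.

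**Figure D2:**
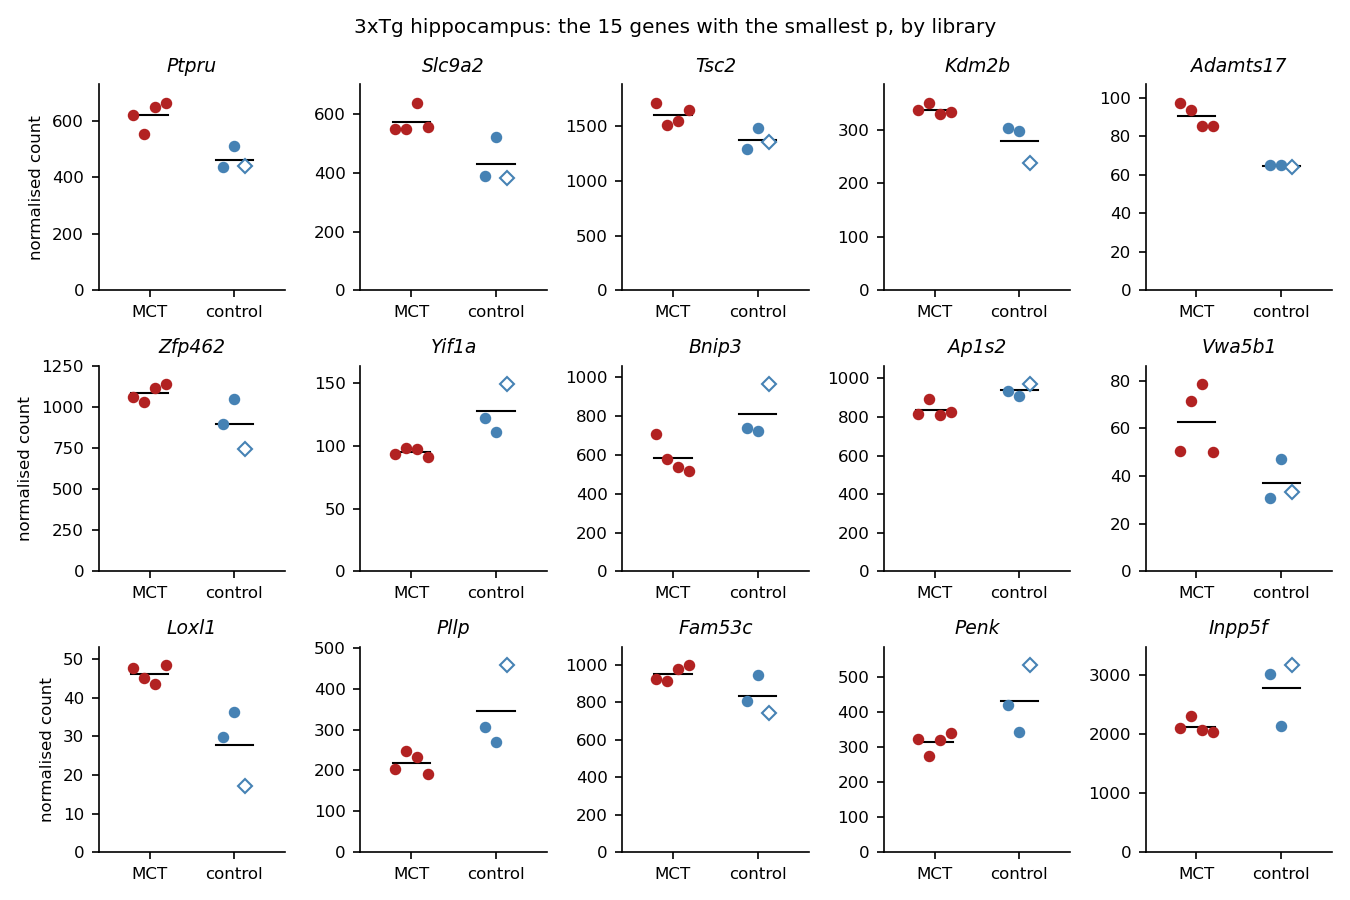
Normalised counts (y axis, from 0) of the 15 genes with the smallest p as labelled, in each 3xTg MCT library (red, left) and 3xTg control library (blue, right), with group means as bars. The open diamond is control replicate 3, the library with low Thy1, which is the lowest or highest of the 7 in most panels. Without it the diets overlap in the panels of Zfp462, Fam53c and Inpp5f and stay apart in the others.

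Without the libraries whose Thy1 went against the label, the smallest p belonged to Arhgap24, a GTPase-activating protein (chr5:102481391-102897937), which had 111, 99.3, 113 and 102 in MCT mice, against 75, 72.7 and 108 in control mice. Control replicates 1 and 2 lay below all 4 MCT mice and control replicate 3 lay among them. The log2 difference was accordingly 0.34 ± 0.14 as labelled and 0.52 ± 0.13 without the libraries whose Thy1 went against the label. Thrsp, a regulator of lipogenesis, had 467, 459.9, 458 and 439 in MCT mice, against 622, 575 and 448 in control mice. Its difference of -0.39 without the low-Thy1 library was -0.25 with it. Sesn2, a stress-induced leucine sensor that inhibits mTORC1, had 174, 179, 198 and 198 in MCT mice, against 142, 154 and 171 in control mice, without overlap in either version (0.27 and 0.34).

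Among the others named in this version, Myh11, the myosin of smooth muscle, had 275, 125, 135 and 271 in MCT mice, against 110.2, 99.9 and 135 in control mice, and the matrix proteoglycan biglycan (Bgn) had 170.2, 109, 124 and 201 in MCT mice, against 82.7, 102 and 119 in control mice. Both were high in MCT replicates 1 and 4, the same mice in which meningeal genes were high (given further on). Nol9 (0.25), the splicing cofactor Rnps1 (0.57), the kinase Syk (0.52), the exchange factor Arhgef4 (0.30) and Tmem63c (0.27) were higher in every MCT mouse than in both remaining control mice. Snrpd3, a core spliceosome protein, was lower (-0.21). Tsc2, Ptpru, Adamts17 and Slc9a2 were among the 15 smallest p in both versions, and none of these genes was called.

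No gene of ketone body use, the pathway an MCT diet would feed, was called between the diets. Of the 14 of 15 members with enough counts to be tested, 8 were nominally higher and 6 lower in MCT mice, with a median log2 difference of 0.01, beside 0.00 for all genes tested. Single members differed by -0.14 to 0.67. For 11 of the 14 the 95% interval lay within a 1.5-fold change, and for the rest larger differences remain within the interval. Bdh1, which oxidises beta-hydroxybutyrate to acetoacetate (chr16:31422280-31458901), had 550.1, 535, 604 and 546 in MCT mice, against 569, 524 and 571 in control mice. Oxct1, which activates acetoacetate with coenzyme A, had 5736, 6088, 5837 and 5733 in MCT mice, against 5835, 5491 and 6039.9 in control mice. The MCT and control ranges overlapped for both, and the log2 differences were 0.01 ± 0.07 and 0.02 ± 0.05. The interval for Oxct1 ran from -0.08 to 0.11 on the log2 scale.

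The carriers of ketone bodies were likewise not separated by diet. Slc16a1 (MCT1), the monocarboxylate transporter of endothelium and glia, had 556, 695, 714 and 847 in MCT mice, against 621, 725 and 993 in control mice. Control replicate 3 was the highest of the 7. The log2 difference of Slc16a1 was -0.14 ± 0.18 as labelled and 0.05 ± 0.15 without the libraries whose Thy1 went against the label. Slc16a7 (MCT2), the neuronal transporter, differed by -0.08, and Bsg, the chaperone that brings these transporters to the membrane, by -0.10. Hcar2, the receptor for beta-hydroxybutyrate, was too low to test. It was represented by 4, 2, 2 and 2 reads in MCT mice and 0 reads in each of the 3 control mice, and in WT by 1 read over 4 MCT mice and 9 reads over 4 control mice, so no difference is given.

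Fatty acid oxidation gave the same picture. Of 40 members 38 were tested, 16 higher and 22 lower in MCT mice, with a median of -0.01 and none with an unadjusted p under 0.05. Acadm, the medium-chain acyl-CoA dehydrogenase that begins the oxidation of medium-chain fatty acids (chr3:153922357-153944632), had 532, 550.2, 508 and 493 in MCT mice, against 562, 489.7 and 553 in control mice. The groups overlapped and the log2 difference was -0.04 ± 0.08. Cpt1a, the carnitine transferase that long-chain but not medium-chain fatty acids need to enter mitochondria, had 476, 467, 470.3 and 461 in MCT mice, against 410.1, 452 and 433 in control mice. All 4 MCT mice were above all 3 control mice, by a log2 difference of 0.12 ± 0.08 whose interval ran from -0.04 to 0.28. Hadhb, the thiolase subunit of the mitochondrial trifunctional protein, was the other of the 38 members without overlap (0.14 ± 0.09), beside 2.34% of all genes higher in every MCT mouse. Its partner subunit Hadha differed by -0.08 and Hadh, the medium- and short-chain hydroxyacyl-CoA dehydrogenase, by -0.17 ± 0.08. Pdk4, a target of Ppara that slows pyruvate oxidation, had 523, 498, 533 and 401 in MCT mice, against 496, 549.6 and 213 in control mice. Control replicate 3 was the lowest, and the difference of 0.33 was -0.10 without that library.

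**Figure D3:**
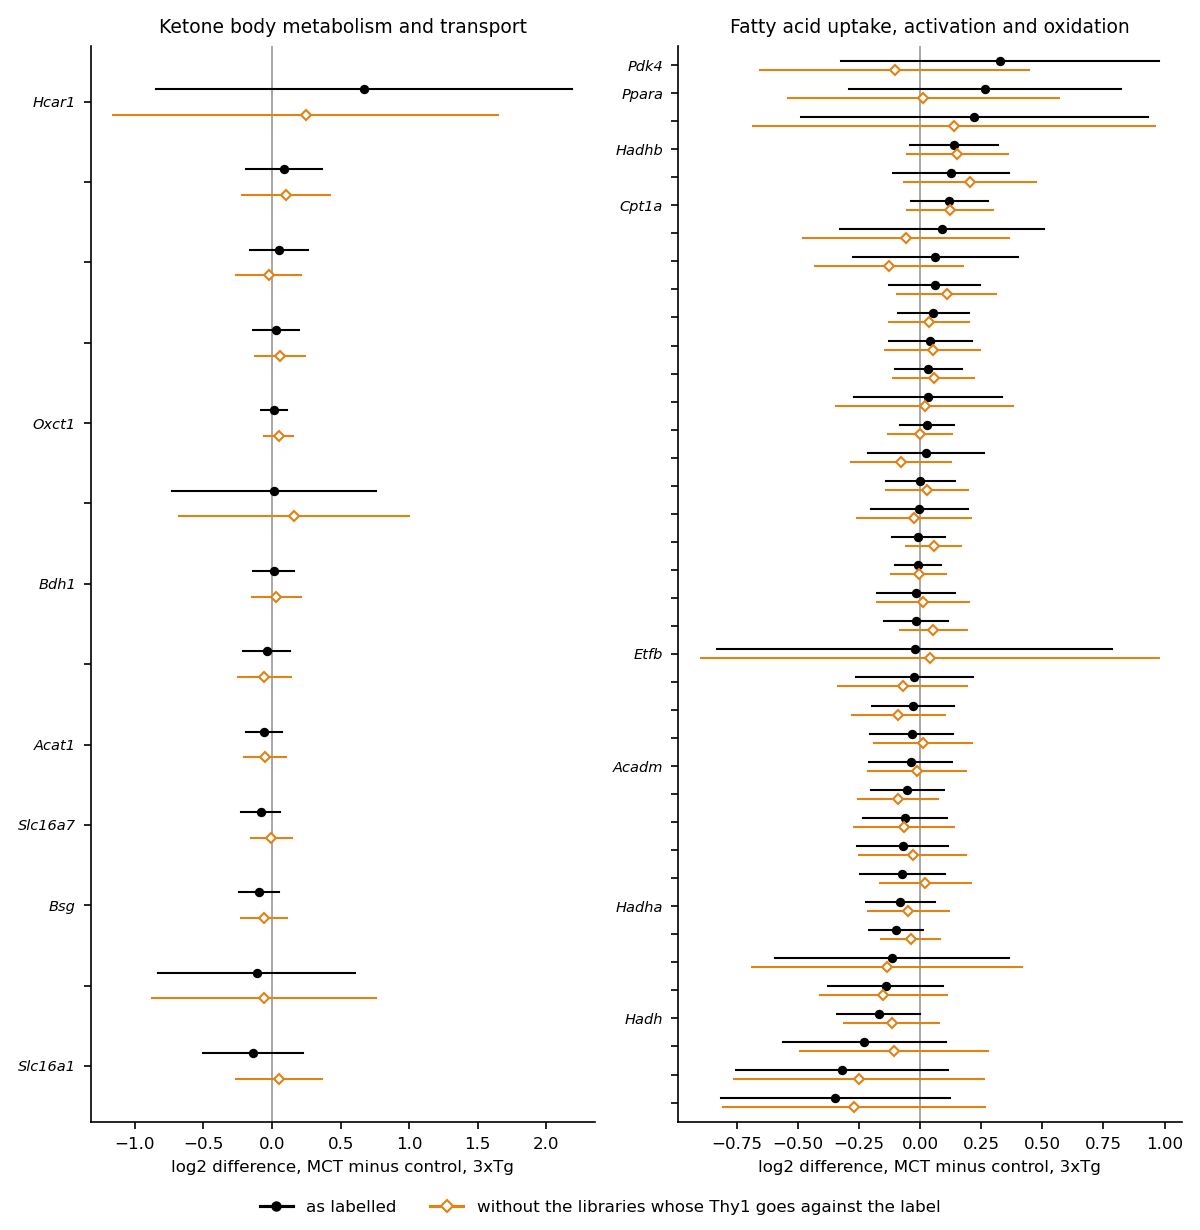
Log2 difference in normalised count, MCT minus control in 3xTg (x axis), with 95% intervals, for 13 of the 14 tested genes of ketone body metabolism (left) and the 38 of fatty acid oxidation (right), as labelled (black) and without the libraries whose Thy1 went against the label (orange). Genes described in the text are named on the y axis. Every interval as labelled includes 0, and the widest belong to genes with few counts, such as Hcar1 and Etfb.

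Of 18 genes of fatty acid synthesis, 9 were higher and 9 lower in MCT mice (median 0.00). Fatty acid synthase (Fasn) differed by 0.01 ± 0.08 and the desaturase Scd2 by -0.06 ± 0.06. Of 11 receptors that sense fatty acids or related ligands, 5 had enough counts to test. Ffar1, Ffar2, Ffar3 and Gpr119 were at 0 in all 7 libraries, and among the receptors tested the nuclear receptor Pparg had 27.9, 15.2, 23 and 21.4 in MCT mice, against 17.6, 13.6 and 14.3 in control mice. Gpr84, the receptor for medium-chain fatty acids, had 3.60, 3.95, 3.17 and 5.58 in MCT mice, against 11, 0 and 8.59 in control mice. Those few counts did not separate the diets, and the Pparg difference was 0.48 ± 0.26.

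Glucose and mitochondrial genes differed by small amounts. Of 33 genes of glucose transport and glycolysis 14 were higher in MCT mice (median -0.01), and for 32 of them the interval lay within 1.5-fold. Hexokinase 2 (Hk2) was the 1 member of 33 without overlap, a share near the 2.34% of all genes, with 147, 128, 141 and 127 in MCT mice, against 111, 116 and 109 in control mice (0.27 ± 0.14). In the citric acid cycle 1 of 18 genes was nominally higher and the median was -0.04, while without the low-Thy1 library 6 of 18 were higher (median -0.02). All 18 intervals lay within 1.5-fold.

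Nuclear subunits of the respiratory chain were nominally lower in MCT mice in 46 of 50 cases, with a median log2 difference of -0.07 (-0.07 without the low-Thy1 library) and none called. Ndufs7, a complex I subunit, had 504, 505, 591 and 539 in MCT mice, against 663, 578 and 569.5 in control mice. Ndufb8, another complex I subunit, had 845, 912, 932 and 927 in MCT mice, against 1013, 926 and 1074 in control mice. For both genes MCT replicate 3 lay above the lowest control mouse, so the groups overlapped. Summed counts of the list overlapped too, at 87376 to 93547 in MCT mice and 89140 to 99576 in control mice. Of the 50 members 0 were without overlap. In WT mice the same list was nominally higher on MCT in 46 of 50 cases, with a median of 0.06. The median of the difference between genotypes was -0.13, and no member was called for it. The 8 tested mitochondrially encoded genes were all nominally lower in MCT mice (median -0.06, and -0.03 without the low-Thy1 library). The table lists mt-Co2, mt-Co3, mt-Atp6, mt-Atp8 and mt-Nd4l at or near 0 in these libraries, so they were not used.

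Cytosolic ribosomal protein genes were nominally lower in MCT mice in 38 of 43 cases, with a median of -0.10 (-0.11 without the low-Thy1 library), and none was called. Their summed normalised counts were 39383 to 40968 in MCT mice and 41291 to 45713 in control mice, ranges that did not overlap. Rps7 had 730.2, 703, 703 and 645 in MCT mice, against 847, 794 and 796 in control mice. Rpl38 had 319.6, 323, 354 and 358 in MCT mice, against 464, 365 and 368 in control mice, and Rps16 had 122, 127, 136 and 124 in MCT mice, against 169.8, 142 and 142 in control mice. In all 3 genes control replicate 1 was the highest of the 7 libraries and the MCT mice lay below every control mouse, as they did in 8 of the 43 members, beside 1.85% of all genes. Without control replicate 1 the list median was -0.05. In WT 36 of 43 were nominally higher on MCT (median 0.04), with no member called for the difference between genotypes. Many ribosomal protein genes have near-identical pseudogenes, so single values are uncertain.

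Nutrient-sensing genes included 2 of the named genes. Of 24 genes of mTOR and AMPK signalling, 15 were higher in MCT mice (median 0.04), and Tsc2 and Sesn2, both described above and both restraints on mTORC1, were the 2 without overlap, beside 2.34% of all genes higher in every MCT mouse. Prkab2, a regulatory subunit of AMPK, had 1146, 1121, 1183 and 1188 in MCT mice, against 1025, 1178 and 861 in control mice, and its difference of 0.19 was 0.08 without control replicate 3. Of 25 genes of insulin and IGF signalling 15 were higher (median 0.01). Igf1r, the IGF1 receptor, had 1361, 1279, 1360.2 and 1372 in MCT mice, against 1117, 1403 and 1110.5 in control mice. Control replicate 2 lay above all MCT mice while the other 2 control mice lay below them, so the groups overlapped (0.16 ± 0.07). Igf1 (-0.07 ± 0.13) and the docking protein Irs1 (0.00 ± 0.09) were close to 0. Cholesterol synthesis genes had a median of -0.04, 4 of 23 higher, led in p by Tm7sf2 (-0.22 ± 0.14).

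No synaptic gene was called. Of 30 genes of the excitatory synapse scaffold and CaMKII 22 were nominally higher in MCT mice, with a median of 0.03, and every interval lay within 1.5-fold. Shank2, a postsynaptic scaffold, had 2431, 2298, 2471 and 2509.9 in MCT mice, against 2057, 2467 and 1900.4 in control mice. Control replicate 2 was within the MCT range and the other 2 control mice were below it, for a difference of 0.19 ± 0.07, or 0.11 without the low-Thy1 library. Of 25 glutamate receptor genes 13 were higher (median 0.01), and the metabotropic receptor Grm3 was lower in every MCT mouse, with 791, 774, 674 and 681 in MCT mice, against 934, 797 and 795 in control mice. Grm3 was the 1 of 25 members lower in every MCT mouse, and 1 was higher in every one, beside 1.85% and 2.34% of all genes. Of 12 GABA-A receptor subunits 1 was nominally higher and the median was -0.11 (-0.06 without the low-Thy1 library).

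Immediate early genes, transcribed within minutes of neuronal firing, varied between MCT mice. Of 22 members 18 were nominally higher in MCT mice (median 0.14, and 0.09 without the low-Thy1 library), and none was called. Fos had 297, 259, 296 and 557 in MCT mice, against 297, 289.8 and 197 in control mice. Arc had 1128, 926, 1514 and 2344 in MCT mice, against 989.9, 1330.0 and 995 in control mice. MCT replicate 4 was the highest of the 7 for both, and control replicate 3 was the lowest for Fos, so the groups overlapped (0.39 ± 0.34 and 0.34 ± 0.30). Without MCT replicate 4 the list median was 0.08. Ier5 went the other way, with 526, 459.9, 519.5 and 475 in MCT mice, against 535, 619.6 and 719 in control mice and no overlap. It was the 1 of 22 members without overlap, beside 1.85% of all genes lower in every MCT mouse. Bdnf, the neurotrophin induced by activity, had 878, 994, 1033 and 909 in MCT mice, against 1129.9, 893 and 1332 in control mice (-0.21 ± 0.15), and of 8 neurotrophin genes 3 were higher (median -0.02).

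Lists of neuron types showed no called gene. Pyramidal cell markers had a median of 0.02 (10 of 17 higher), dentate granule cell markers -0.07 (5 of 12) and interneuron markers -0.03 (6 of 16). In bulk tissue, fewer cells of a type and less RNA per cell cannot be told apart. Wfs1, a CA1 marker, had 1424, 1272, 1261 and 1072 in MCT mice, against 1309.6, 1672 and 1867 in control mice. C1ql2, a granule cell marker, had 221, 208, 270.5 and 324 in MCT mice, against 273, 305 and 662 in control mice, with control replicate 3 far above the other 6. Immature neuron and neurogenesis genes had a median of -0.16, or -0.01 without that library. Mcm6, a replication helicase subunit, had 41.4, 42.9, 46 and 40 in MCT mice, against 45.2, 39.1 and 231 in control mice, and Hopx, expressed by radial glia-like stem cells, had 761, 785, 669 and 675 in MCT mice, against 911, 799 and 946 in control mice, without overlap (-0.29 ± 0.10). Hopx was the 1 of 14 members without overlap, beside 1.85% of all genes lower in every MCT mouse. Of the genes that mark striatum, thalamus or neocortex 9 of 18 were higher. Penk and Tac1 of that list were lower in every MCT mouse (-0.44 and -0.53), beside 1.85% of all genes, and Tcf7l2, picked after its values were seen, was higher in every one (0.13), beside 2.34% of all genes. Whether neighbouring tissue in the dissection took part was not tested.

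Myelin genes were nominally lower in 13 of 14 cases, with a median of -0.14 (-0.11 without the low-Thy1 library) and none called. Cnp, a myelin enzyme, had 2600.3, 3046, 2819 and 2256 in MCT mice, against 3039, 3162 and 3783 in control mice. Aspa, which splits N-acetylaspartate in oligodendrocytes, had 167, 227, 177 and 182 in MCT mice, against 239, 206 and 384 in control mice. MCT replicate 2 overlapped the control range for both genes. Of 10 precursor and lineage genes 2 were higher (median -0.06). Olig1, a lineage transcription factor, had 836, 875, 845 and 860.5 in MCT mice, against 1011, 970.2 and 955 in control mice, and Enpp6, a marker of newly forming oligodendrocytes, had 94.5, 124, 102 and 90.2 in MCT mice, against 138, 146 and 193 in control mice. Neither overlapped between diets, with log2 differences of -0.20 ± 0.09 and -0.62 ± 0.24. They were the 2 of 10 members lower in every MCT mouse, beside 1.85% of all genes. In WT the myelin list had a median of -0.04 and the precursor list 0.05. Without the libraries whose Thy1 went against the label both WT medians were 0.04, so the sign of the myelin median changed.

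No microglial or astrocyte gene was called. Homeostatic microglial genes were lower in 10 of 14 cases (median -0.09). Their mean log2 level, relative to the mean of the 7 libraries, was -0.0969 to -0.00124 in MCT mice and 4.92e-05 to 0.0843 in control mice, ranges that did not overlap by a narrow margin. Their summed counts did overlap, at 6526 to 6803 in MCT mice and 6551 to 7181 in control mice, and 0 of the 14 members were without overlap. Of the genes of plaque-associated microglia 15 of 21 were lower (median -0.04). Trem2, the lipid receptor that this microglial state needs, had 109, 90.3, 94.4 and 94 in MCT mice, against 86, 99 and 100.2 in control mice (0.03 ± 0.15). Cst7 and Itgax, defining genes of that state, had too few counts to test. Gfap, the intermediate filament of astrocytes, had 4944, 5017, 6093 and 5972 in MCT mice, against 5420.4, 5448 and 5961 in control mice (-0.03 ± 0.10). The reactive astrocyte list had a median of 0.17, with 12 of 15 higher, and for 8 of the 15 the interval lay within 1.5-fold. Its mean log2 level, relative to the mean of the 7 libraries, was 0.46, -0.07, -0.28 and 0.18 in MCT mice, against -0.26, -0.10 and 0.07 in control mice. MCT replicates 1 and 4 were the highest and MCT replicate 3 the lowest, so the groups overlapped. Its member Serpina3n had 746, 823, 937 and 862 in MCT mice, against 831, 847 and 3605 in control mice, and the difference of -0.70 was 0.00 without control replicate 3, which was far above all others. S1pr1, a sphingosine-1-phosphate receptor of astrocytes and endothelium, was lower in every MCT mouse (-0.20 ± 0.07). It was the 1 of 13 homeostatic astrocyte genes without overlap, beside 1.85% of all genes.

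Interferon response genes were among the most variable lists, and 1 MCT mouse led them. Type I interferon acts through a complex that holds Stat2 and Irf9 and binds the interferon-stimulated response element (ISRE) near the start of their target genes. Promoter stretches with this element are shown because it is common to many, though not all, members of the family. Of the 18 tested members with a RefSeq promoter window (250 bases before to 50 after the start, GRCm38.p6), 12 held GAAANNGAAA on either strand, in at least 1 of their windows, against 3.99% of all 27025 genes with a window. A match is a run of letters and not a measured site. Stretches of 30 bases are printed 5′ to 3′ on the strand of the gene, with matches, which may overlap each other, in capitals.
Isg15, chr4:156200871-156200900, minus strand: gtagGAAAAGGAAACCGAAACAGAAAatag
Ifit1, chr19:34640785-34640814, plus strand: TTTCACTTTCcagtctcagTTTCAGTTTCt
Bst2, chr8:71537580-71537609, minus strand: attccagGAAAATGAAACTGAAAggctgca
Stat2, chr10:128270266-128270295, plus strand: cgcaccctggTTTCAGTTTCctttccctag

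Isg15, an interferon-induced ubiquitin-like modifier, had 18.9, 10.2, 2.38 and 2.79 in MCT mice, against 1.10, 5.45 and 13.4 in control mice. Ifit1, which binds foreign RNA ends, had 85.5, 41.2, 15.9 and 44.7 in MCT mice, against 26.5, 34.5 and 44.8 in control mice, and Bst2 (tetherin), which holds budding virus at the membrane, had 29.7, 10.2, 4.76 and 26 in MCT mice, against 14.3, 14.5 and 8.59 in control mice. MCT replicate 1 was the highest of the 7 for all 3 genes, and MCT replicate 3 the lowest for Ifit1 and Bst2. Oasl2, a member of the oligoadenylate synthetase family, had 227, 100.4, 26.2 and 67 in MCT mice, against 33.1, 46.3 and 48.7 in control mice, with the same mouse highest and a difference of 0.91 ± 0.49. Of 22 members 18 were nominally higher in MCT mice, with a median of 0.23, and none was called. Without the libraries whose Thy1 went against the label 19 of 22 were higher and the median was 0.31. As labelled but without MCT replicate 1 the median was 0.03. Stat2 had 535, 517, 466 and 543 in MCT mice, against 431, 489 and 333 in control mice and Ifi27, a mitochondrial interferon-induced protein, had 464, 350.4, 328 and 367 in MCT mice, against 319.7, 291 and 324 in control mice. Ifi27 was higher in every MCT mouse (0.27 ± 0.11), and Xaf1 was the member lower in every one (-0.33 ± 0.22). Each was 1 of 22 members, beside 2.34% of all genes higher and 1.85% lower in every MCT mouse.

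Genes of the MHC and complement were nominally higher in 18 of 23 cases (median 0.22, and 0.15 without the low-Thy1 library). C4b, the complement component that astrocytes and oligodendrocytes make in ageing brain, had 834, 631, 721 and 805 in MCT mice, against 520.3, 726 and 405 in control mice. Serping1, the inhibitor of C1, had 103, 43.4, 53.9 and 91.2 in MCT mice, against 40.8, 57.2 and 44.8 in control mice. For Serping1, MCT replicates 1 and 4 were high and replicates 2 and 3 lay within the control range. Meningeal fibroblast genes divided the MCT mice in the same way. Their summed counts were 1294 to 2685 in MCT mice and 1949.5 to 2152 in control mice, and Slc13a4, a sulfate transporter of the meninges, had 139.6, 35.5, 30.9 and 159 in MCT mice, against 26.5, 71.8 and 47.7 in control mice. The part of meningeal tissue in these differences was not tested. Vessel-associated genes had a median of 0.07 (11 of 15 higher), led by Myh11, and 0.13 (14 of 15) without the libraries whose Thy1 went against the label. Choroid plexus markers were low, their sums being 658 to 840.2 in MCT mice and 584 to 827 in control mice. Ttr, which that tissue makes in bulk, was at 55.8, 170.4, 69.8 and 171 in MCT mice, against 36.4, 149 and 106 in control mice. In WT the choroid plexus list had a median of -1.25 (0 of 10 higher on MCT) and the meningeal list -0.57 (0 of 12). The medians of the difference between genotypes were 1.15 and 0.79, with no member called for it. Ependymal genes had a median of 0.17 and red blood cell genes 0.26, with groups overlapping. Without the libraries whose Thy1 went against the label these medians were 0.34 and 0.30.

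Stress lists depended on the low-Thy1 library. Chaperones of the heat shock and endoplasmic reticulum responses were nominally higher in 28 of 32 cases, with a median of 0.13 as labelled and 0.02 without that library. Hspa5, the main chaperone of the endoplasmic reticulum, had 9300.2, 8616, 7071 and 8617 in MCT mice, against 8960.1, 7535 and 4638 in control mice. Control replicate 3 alone was low, and the difference of 0.30 ± 0.15 was 0.02 without it. Glucocorticoid-responsive genes had a median of 0.22 as labelled and 0.01 without. Sult1a1, a sulfotransferase, had 372, 294, 339 and 275 in MCT mice, against 195, 293 and 114 in control mice, a difference of 0.76 that was 0.41 without. Antioxidant genes had medians of -0.04 and 0.00, and clock genes of 0.02 and 0.00, with none called. Of the 16 genes of the transgene cassette and of APP processing 5 were higher, and Mapt, the mouse gene for tau, had 7553, 7631, 8004 and 7897 in MCT mice, against 7698, 7835 and 6970.0 in control mice (0.05 ± 0.07).

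**Figure D4:**
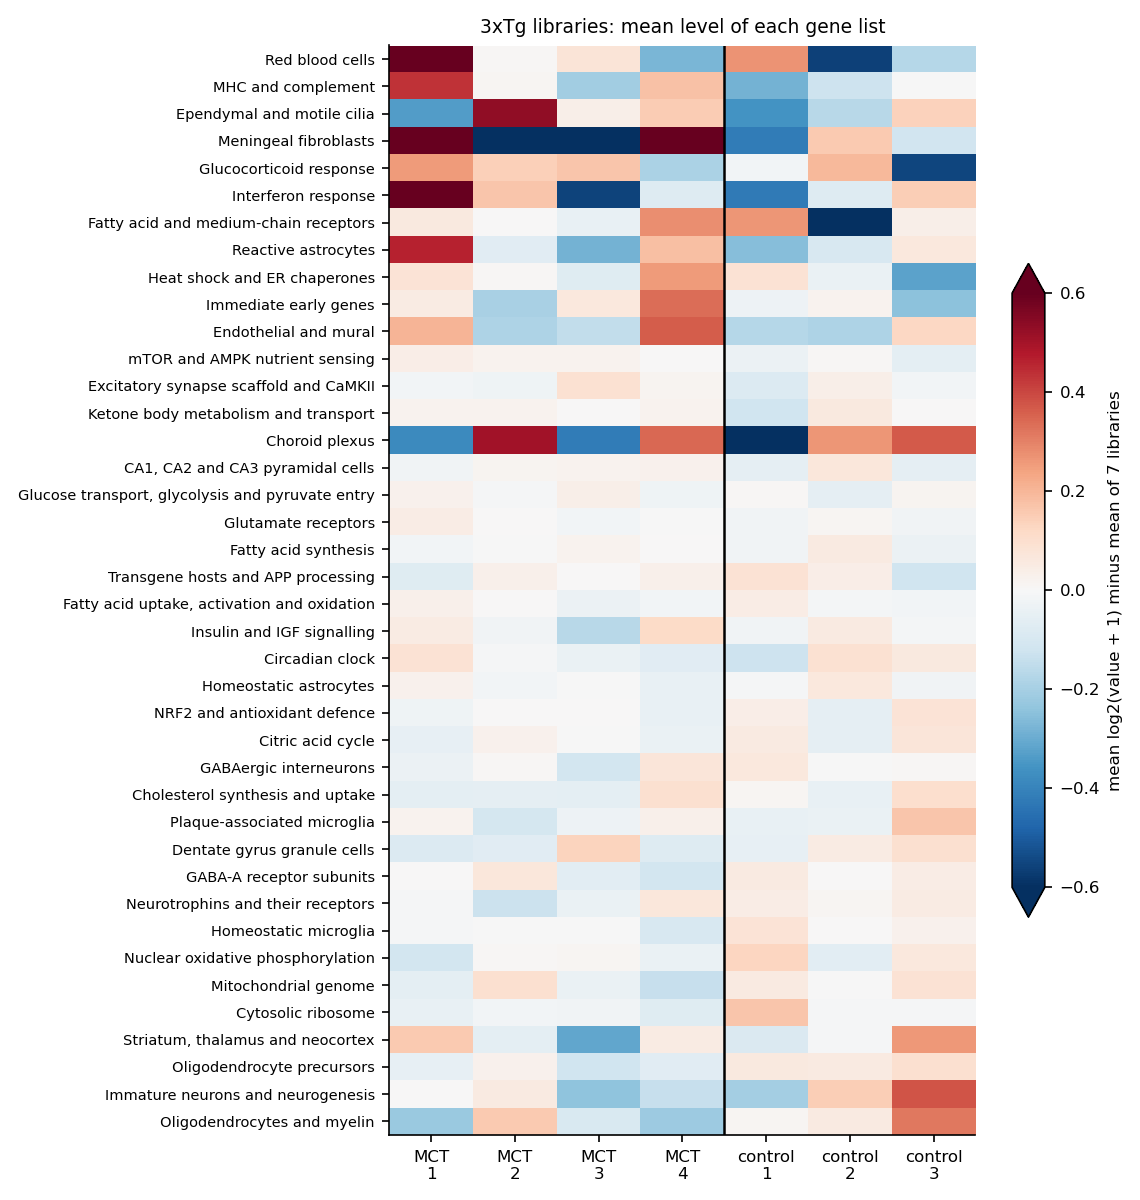
Mean log2(normalised count + 1) of the tested members of each of 40 gene lists (rows, ordered by MCT minus control), minus the mean over the 7 libraries, in 4 MCT libraries (left of the line) and 3 control libraries (right). Colours saturate at 0.6 in either direction. Interferon and meningeal rows are highest in MCT replicate 1 or 4, glucocorticoid and chaperone rows lowest in control replicate 3, and ketone body, glycolysis and fatty acid oxidation rows stay closer to 0.

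Whether MCT acted differently in the 2 genotypes was tested as the MCT effect in 3xTg minus that in WT. As labelled, 0 genes (0%) were called by limma, edgeR or DESeq2 and 393 (2.78%) had an unadjusted p under 0.05. Without the libraries whose Thy1 went against the label, limma called 2 genes (0.0142%), Pla2g4e and Eif3j2, and 348 (2.46%) had an unadjusted p under 0.05. Pla2g4e encodes a cytosolic phospholipase A2 family member (chr2:120166412-120245335). Its counts were 37.8, 28.2, 24.6 and 33.5 in 3xTg MCT mice, 28.7, 32.7 and 409 in 3xTg control mice, 39.4, 32, 21 and 34.2 in WT MCT mice and 249.6, 451, 206 and 199.8 in WT control mice. All 4 WT control mice and 3xTg control replicate 3 were high, and every other MCT or control library was low. Values in the ketogenic libraries are not given here. The difference between the effects was 3.05 ± 0.49 (adjusted p = 0.0267), made up of 0.00 ± 0.37 in 3xTg and -3.05 ± 0.33 in WT. Within 3xTg, then, the diets did not separate this gene once control replicate 3 was left out. Whether diet or another difference between the mice set its level in WT was not tested.

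Eif3j2, a copy of a translation initiation factor subunit gene (chr18:43475418-43477796), followed the same libraries, with 2.70, 1.69, 1.59 and 3.72 in 3xTg MCT mice, 3.31, 2.73 and 90.6 in 3xTg control mice, 1.64, 0, 2.10 and 2.01 in WT MCT mice and 48.3, 77, 57 and 36.7 in WT control mice. The difference was 3.94 ± 0.65 (adjusted p = 0.0267), with -0.27 ± 0.49 in 3xTg. Eif3j1, the near-identical gene on chromosome 2 (chr2:122028546-122056598), was low where Eif3j2 was high, with 167, 171, 128 and 163 in 3xTg MCT mice, 179, 142 and 24.8 in 3xTg control mice, 145, 145, 169 and 163 in WT MCT mice and 75.2, 25.2, 84.1 and 89.6 in WT control mice, so reads of the 2 copies may be shared and the Eif3j2 value is uncertain. Neither call stood under every tool. The adjusted p was 0.742 for Pla2g4e and 1.0 for Eif3j2 by edgeR, and 0.220 for Eif3j2 by DESeq2, which still called Pla2g4e.

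Other genes named by p for this contrast were not called. Exd1, a cofactor of the piRNA pathway, had 35.1, 27.6, 22.2 and 37.2 in 3xTg MCT mice, 17.6, 24.5 and 39.1 in 3xTg control mice, 14.8, 14.3, 24.2 and 26.1 in WT MCT mice and 45.5, 68.6, 51.4 and 43.9 in WT control mice, with a difference between effects of 1.59 ± 0.37 as labelled and 1.75 without the 3 libraries. WT MCT mice lay below WT control mice, while 3xTg MCT and control mice overlapped. Exd1 (chr2:119516505-119547627) lies on the same chromosome as Pla2g4e and Eif3j1. Whether a difference between the mice other than diet took part was not tested. Cox14, a factor for cytochrome oxidase assembly, differed by -0.34 ± 0.10, Setd5 by 0.31, Vwa5b1 by 1.10 and the receptor Notch1 by 0.36. For Cox14 the counts in 3xTg were 373, 374, 414 and 371 on MCT, against 457, 413 and 445 on control diet, and in WT 438, 441, 443 and 473 on MCT, against 402, 396, 394 and 427 on control diet. On average MCT mice were lower in 3xTg and higher in WT, without the difference reaching the adjusted threshold. Trub1 and Arhgap24, named without the 3 libraries, differed by 0.47 and 0.63.

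**Figure D5:**
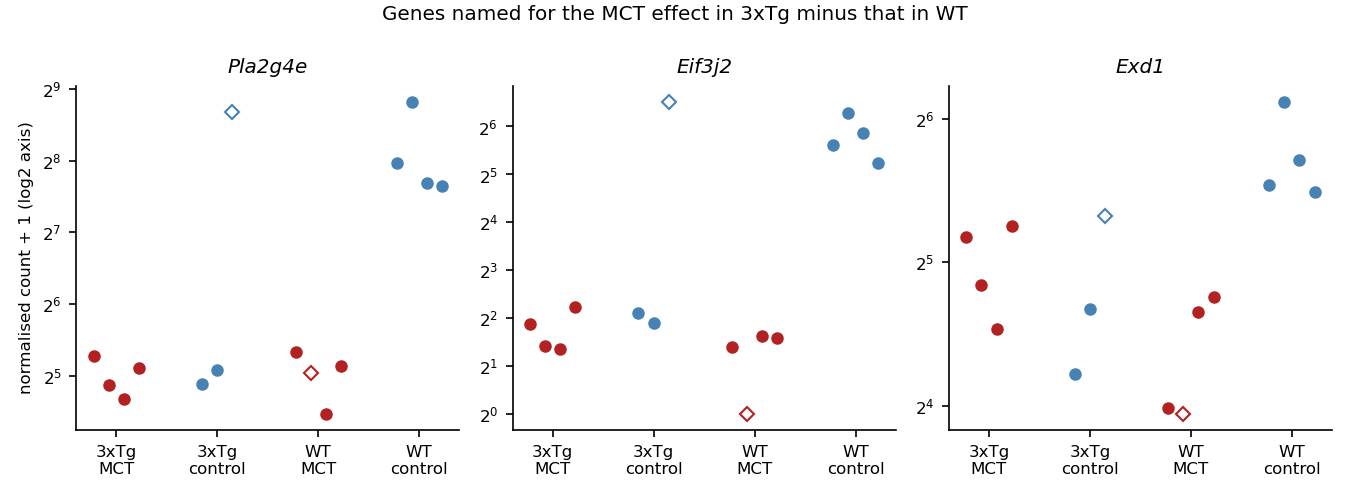
Normalised count + 1 on a log2 axis (y) of Pla2g4e, Eif3j2 and Exd1 in 3xTg MCT, 3xTg control, WT MCT and WT control libraries (left to right). Red marks MCT and blue control, and open diamonds are libraries whose Thy1 went against the label. For Pla2g4e and Eif3j2 only WT control mice and the low-Thy1 3xTg control library are high.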

How the data were processed

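Poly(A) RNA of single hippocampi was sequenced from 500 ng of RNA with an integrity number above 8 and 11 PCR cycles, per the labels' protocols. The submitters' processing notes name Trimmomatic, STAR and GRCm38. Which program counted reads per gene, and which set the scaling, is not given in the sources used here. Per the file headers and values, the authors deposited signal values, which are normalised read counts of 21793 genes in 24 libraries. Values were whole multiples of 1 step per library (100% within 0.01 reads), so whole reads were recovered.

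Genes at 10 or more in at least 3 fitted libraries were kept. Log2(value + 1) was fitted with limma 3.58.1 (R 4.3.3, mean-dependent prior, 1 mean for each of 6 groups) and Benjamini-Hochberg adjustment over all kept genes, two-sided, called at 0.05. The fit was also run on simulated counts, with the outcome not given here. No simulated library stood apart as control replicate 3 does, so that run cannot show how the fit handles such a library. Fold changes on this scale understate low genes. edgeR 4.0.16 and DESeq2 1.42.0 on the recovered reads were alternatives. Counting depth is as given. Errors after ± are standard errors of the fitted difference, with the spread estimated over all 6 groups, except where SD is stated. Positions are GENCODE M21 on GRCm38.

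The 15 smallest p among genes with a mean of at least 32 and no predicted name were named where fewer than 10 genes were called, 5 for the genotype difference, 3 smallest p per list, and a fixed set of genes. Some of these genes are not reported here. Comparison, members and lists were chosen with earlier results of these data known.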

Additional observations from a re-analysis of the deposited data

Results flagged for a closer look

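Of 214 groups of 4 libraries examined, in 11 the highest or lowest library lay apart by a gap above Dixon's 95% critical value, given below as a share of the group's range. Chance gives such a gap in about 1 in 20 groups. Among MCT mice, replicate 3 was apart for Slc9a2 (gap ratio 0.906, at 637 against 548 to 556 in the others), for Pfkfb3, an activator of glycolysis (0.864, at 838 against 716 to 732), and for the mean log2 level of dentate granule cell markers (0.937, at 9.63 against 9.41 to 9.42) and of ketone body genes (0.957, at 8.40 against 8.42). Replicate 4 was apart for Fos (0.872, at 557 against 259 to 297), cholesterol genes (0.955, at 9.01 against 8.85 to 8.86) and homeostatic microglia (0.929, at 8.10 against 8.19). Replicate 2 was apart for Igf1r (0.872, at 1279 against 1360.2 to 1372) and replicate 1 for the neuropeptide Npy (0.831, at 370.1 against 515 to 545). Among WT MCT mice, replicate 4 was apart for Cox14 (0.862, at 473 against 438 to 443), and replicate 2, the library with high Thy1, for Trub1 (0.919, at 419 against 264 to 277).

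The MCT effect in 3xTg minus that in WT differed for Pla2g4e (log2 3.05) and Eif3j2 (3.94) without the libraries whose Thy1 went against the label, by limma.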

How the results depend on the processing

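Between diets in 3xTg no gene was called under the other pseudocounts, filters, scalings, weights, tools, the compared groups alone or any left-out library (0 to 0 genes), except that without any filter 1 gene was called as labelled. That gene was Ces1f, at 0 in all 4 MCT mice against 1.10, 1.82 and 0.954 in control mice. Leaving out single libraries gave 157 (without control replicate 3) to 1020 genes (without control replicate 2) at an unadjusted p under 0.05, against 378, and 236 without MCT replicate 4. Without the libraries whose Thy1 went against the label it gave 626 without control replicate 2 and 111 without control replicate 1, against 165. The cause was not tested.

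For the MCT effect in 3xTg minus that in WT, no alternative called a gene as labelled. Without the libraries whose Thy1 went against the label the 2 calls were 0 with no filter, 1 with a mean of at least 50, 0 by edgeR, 1 by DESeq2, 0 with the replicate block and 0 to 2 with a library left out. Calls were lost without either 3xTg control mouse, without MCT replicates 1 or 4, without WT control replicates 1, 2 or 3 and without WT MCT replicates 3 or 4, and that of Eif3j2 also without WT MCT replicate 1. The replicate block gave 0 calls between diets in both versions. Deviations of mice with the same number correlated at -0.05, -0.12 and -0.08. Mice with different numbers were not compared in this way, so these values cannot decide whether numbers pair the mice.

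Of 6497 gene values under an alternative, 6241 stayed within 1 standard error or kept their call 228 moved further, 26 lost a call and 2 gained one (all of Pla2g4e or Eif3j2 for the genotype difference), and of 800 list medians 793 moved by less than the spread between mice. The exceptions came mostly from leaving out a control library. The comparison rests on 3 control mice, 1 of which goes against its label, or on 2. Depth was not varied.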
